A study of Physcomitrium patens with 24 samples.

Results

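Protein-protected RNA sites found with a single-strand-specific RNase were compared in moss protonema after 30 min of abscisic acid (ABA) and at 0 min. The members are the sites of the 30-min and 0-min lists whose call names hold an ssRNase call of replicate 1 or 2. They number 26986 of the 147131 sites in the 3 lists of the study, with 15850 at 30 min and 11136 at 0 min. Protonema is the filamentous juvenile tissue of Physcomitrium patens, grown here in liquid culture. The groups were cultures collected 30 min after ABA was added and the cultures labelled 0 min. Per the treatment protocol, control samples received the same volume of methanol in place of ABA. The series design gives the dose as 10 µM, whereas the treatment protocol has 10 mM. The labels list no culture kept for 30 min without ABA. An effect of ABA and one of time in culture cannot be told apart in these groups. The labels name no mutation, and all samples were crosslinked with formaldehyde and digested with RNaseONE (ssRNase).

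Each replicate gave a plusP and a minusP library, so 8 libraries stand behind the 4 call sets compared: 30 min replicates 1 and 2, and 0 min replicates 1 and 2. The labels do not say that the replicates came from separate cultures, so p-values reflect sample-to-sample spread that could be technical. A call is 1 protected stretch found in 1 set, and the authors merged overlapping calls of a time, those from the dsRNase (RNase V1) libraries included, into the sites of the list. The lists hold no read counts and no RNA levels. Depth is therefore unknown, and more RNA of a transcript and more protein on it cannot be told apart. Genes are not named, because the gene table at hand is of an assembly the lists do not use, and no sequence of their build was at hand. Places are given as the lists give them, 1-based, and the sources used here do not name the genome build.

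Protein interaction profile sequencing compares RNA digested while crosslinked proteins are still bound with RNA digested after the proteins were removed. A stretch that survives only in the presence of protein is read as protected. An ssRNase cuts unpaired RNA, so its sites report protein on RNA that would otherwise be open to the enzyme, whereas RNase V1 reports protein on paired or stacked RNA. ABA is a hormone through which plants respond to drought and salt. In mosses, as in seed plants, it acts through PYR/PYL-type receptors, PP2C phosphatases and SnRK2 kinases, and it induces transcripts of desiccation tolerance.

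More ssRNase calls were made at 30 min than at 0 min in both replicates. The 30-min sets held 10536 and 17745 calls, against 9611 and 8300 calls at 0 min. The groups did not overlap, and replicate 2 of 30 min stood well above the other 3 sets. With n = 2 each, the 30-min sets averaged 14140.5 calls (SD 5098) and the 0-min sets 8955.5 calls (SD 927), a ratio of 1.58. An exact two-sided permutation test gave p = 0.333 (n = 2 per time), the smallest p this design allows. Without replicate 2 of 30 min the difference was 1580.5 calls, against 5185 with it. Sites with a call covered 908 and 1357 kb at 30 min and 766 and 645 kb at 0 min (exact p = 0.333).

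Support by the other enzyme was alike in the 4 sets. Of the sites with a call, 80.9% and 82.2% also held a dsRNase call at 30 min, against 82.0% and 80.4% at 0 min. The share of calls on the plus strand was 58.3% and 52.5% at 30 min and 60.3% and 54.7% at 0 min, so replicate 1 was the higher at each time and the times overlapped. Scaffolds held 1.33% and 1.04% of the sites of the 30-min sets, and 1.29% and 1.42% of those of the 0-min sets.

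**Figure D1:**
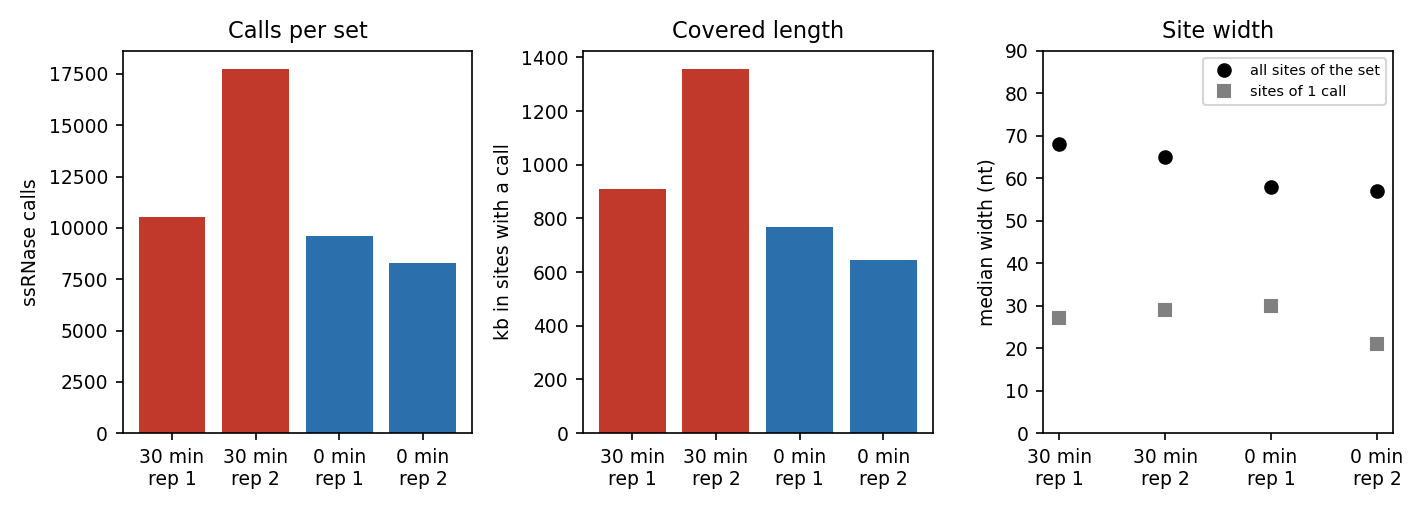
Number of ssRNase calls, length in kb covered by sites with a call, and median site width in nt for each of the 4 call sets (1 bar or point per set). Both 30-min sets lie above both 0-min sets in calls, covered length and the width of all sites, while the widths of sites made of 1 call overlap between the times.

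Median site width was larger at 30 min over all sites, and overlapped between the times for single calls. Over all sites with a call of the set, the median width was 68 and 65 nt at 30 min and 58 and 57 nt at 0 min, with no overlap (exact p = 0.333, n = 2 per time). Sites made of 1 call keep the width of that call. Their medians were 27 and 29 nt at 30 min and 30 and 21 nt at 0 min, which overlap. The mean of these medians was 28 ± 1.41 nt at 30 min and 25.5 ± 6.36 nt at 0 min (exact p = 1), and without replicate 2 of 0 min the difference turned to -2 nt. The lowest of the 4 medians was that of replicate 2 of 0 min.

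Width also differed with the sets merged into a site. Sites called by all 4 sets of their time had a median of 106 nt at 30 min (4663 sites) and 92 nt at 0 min (3071 sites). Sites called by both ssRNase sets and no dsRNase set had 32 nt at 30 min (954 sites) and 31 nt at 0 min (615 sites). At 1633 places with 1 site per time, each called by all 4 sets, the median was 111 nt at 30 min and 104 nt at 0 min, and 53.9% of these sites were wider at 30 min against 32.5% narrower. The median difference at such a place was 1 nt. Where only the 2 ssRNase sets made the call at both times (280 places), 41.4% were wider at 30 min and 36.4% narrower.

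Same-strand overlap by at least 1 nt joined the member sites into 19207 loci, the unit in which call sets were compared. All 4 sets called 2905 loci (15.1%), which are referred to as constant. The largest class came from 1 set, with 5187 loci called in replicate 2 of 30 min alone. Replicate 1 of 30 min alone called 1282, replicate 1 of 0 min alone 2014 and replicate 2 of 0 min alone 1296. The 30-min replicates shared 40.6% of the loci called in either, and the 0-min replicates 37.3%. Pairs of sets from different times shared 29.6% to 34.9%. The mean agreement was 38.97% within times and 32.7% between times, with an exact one-sided permutation p = 0.333 over the 3 ways to pair 4 sets, the smallest possible.

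Gained loci, called in both 30-min sets and in no 0-min set, numbered 1984 (10.3% of all loci). Lost loci, with calls in both 0-min sets and in no 30-min set, numbered 380 (1.98%). For dsRNase calls the same rule gave 7.77% gained and 7.32% lost among 62443 loci, without a test of the difference between the enzymes. Gained loci outnumbered lost ones on all 27 chromosomes, and made up 6.81% (chromosome 24) to 15.4% (chromosome 22) of a chromosome's loci. The excess of gains was not kept with sets of equal size, though it was in the other alternatives run, and the part of set size in it was not tested. When each set was limited to its calls in the highest-scoring sites, up to the 8300 of the smallest set, 859 loci were gained and 1037 lost. The score is that of the merged site, dsRNase calls included, and not of a set's own calls.

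**Figure D2:**
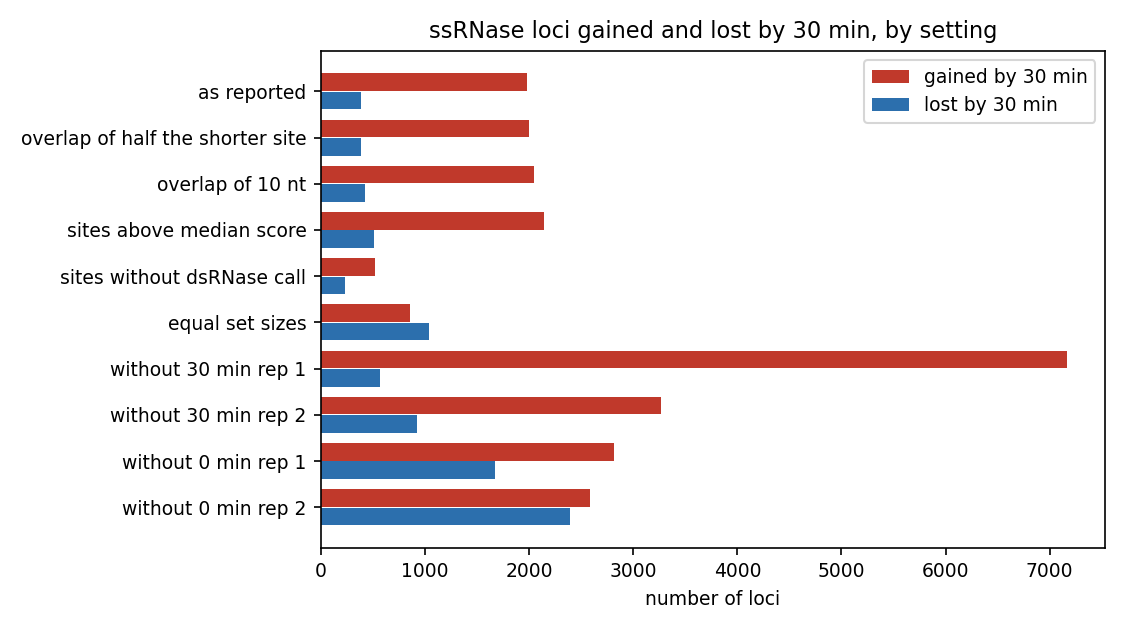
Number of ssRNase loci gained (both 30-min sets, no 0-min set) and lost (the opposite) under each way of counting, 1 pair of bars per setting. Gains exceed losses in every setting drawn except equal set sizes, where 859 loci were gained and 1037 lost. Leaving out a set lets 1 call decide and raises both counts.

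The median width of gained loci was 74 nt, against 44 nt for lost, 97 nt for constant and 57 nt for all loci. Loci of 1 strand separated by gaps under 500 nt formed 9106 regions, used in place of transcripts. Of the gained loci, 1162 (58.6%) lay in a region with no ssRNase call at 0 min, against 26.2% of all loci. Of the lost loci, 188 (49.5%) lay in a region with no ssRNase call at 30 min, against 10.9% of all loci. Both classes lack calls at that time by definition, so these shares are a description. Of the 1341 regions with gained loci, 994 held 1, 147 held 3 or more and 1 region held 16. Of the 351 regions with lost loci, which are far fewer, 327 held 1 and none held more than 3. Along regions of at least 1000 nt built from all sites, the median place of gained loci was 49.6% of the way from 5′ to 3′, against 51.5% for lost, 55.7% for constant and 49.8% for all other loci. The 20% of the region nearest its 3′ end held 22.1% of the gained, 31.9% of the 207 lost, 26.6% of the constant and 22.01% of the other loci in such regions.

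The widest gained locus spanned 1414 nt on chr24:1041874-1043287 (plus strand). DsRNase called it in both 30-min sets and in neither 0-min set, and 1 of the 2 ssRNase sets called it at 60 min. The next was 1003 nt wide at chr17:9737683-9738685 (plus strand). It was called in both dsRNase sets of 30 min and neither of 0 min, and in both ssRNase sets of 60 min. The third, 899 nt at chr23:13597970-13598868 (minus strand), already had dsRNase calls in both 0-min sets, so there the gain was one of ssRNase calls. The 3 widest lost loci were narrower and all kept dsRNase calls in both 30-min sets. They spanned 243 nt at chr22:5678909-5679151 (plus strand), 202 nt at chr6:2488611-2488812 (minus strand) and 201 nt at chr21:2845608-2845808 (plus strand), and no ssRNase set called them at 60 min.

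Call sets other than the 4 that define the classes were then read at the same places. They are not fully independent of the classes, because a site merges dsRNase with ssRNase calls and its extent decides which sites overlap. Both enzymes were used on portions of the same homogenate, so their libraries share its RNA levels. Of the 1984 gained loci, the dsRNase sets called 79.8% and 78.2% at 30 min, against 46.4% and 44.5% at 0 min. For the first of these shares the 95% Wilson interval was 78.0 to 81.5% and for the last 42.3 to 46.7%; such intervals cover counting error only. Lost loci went the other way, with 55.8% and 49.2% called by dsRNase at 30 min and 70.8% and 69.7% at 0 min. At constant loci the dsRNase shares overlapped between the times, at 79.2% and 82.4% for 30 min and 85.1% and 81.3% for 0 min.

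At least 1 dsRNase set of 30 min called 1710 of the gained loci (86.2%), and at least 1 of 0 min had called 1036 (52.2%). All 4 dsRNase sets called 642 gained loci (32.4%, Wilson 30.3 to 34.4%), while 591 (29.8%, 27.8 to 31.8%) were gained in dsRNase as well. Among the 13938 loci that were neither gained, lost nor constant, these shares were 36.4% and 8.53%, so the share called in all 4 dsRNase sets was near that of other loci. No dsRNase set of either time called 216 (10.9%, 9.59 to 12.3%). Among lost loci, 138 (36.3%, 31.6 to 41.3%) were called in all 4 dsRNase sets, and 41 (10.8%, 8.05 to 14.3%) were lost in dsRNase too, against 5078 (36.4%) and 599 of the 13938 other loci.

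At 60 min of ABA, each of the 2 ssRNase sets called 797 of the gained loci (40.2%). Both called 503 of them (25.4%), 1 of the 2 called 588 and neither called 893 (45.0%). Of the lost loci the 60-min sets called 12.6% and 11.3%, and of the constant loci 79.5% and 74.9%. In both 60-min sets the share of gained loci lay between those of lost and constant loci, a difference that was not tested. Loci of mixed pattern, mostly called in 1 or 3 of the 4 sets, had 15.7% and 16.8%.

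**Figure D3:**
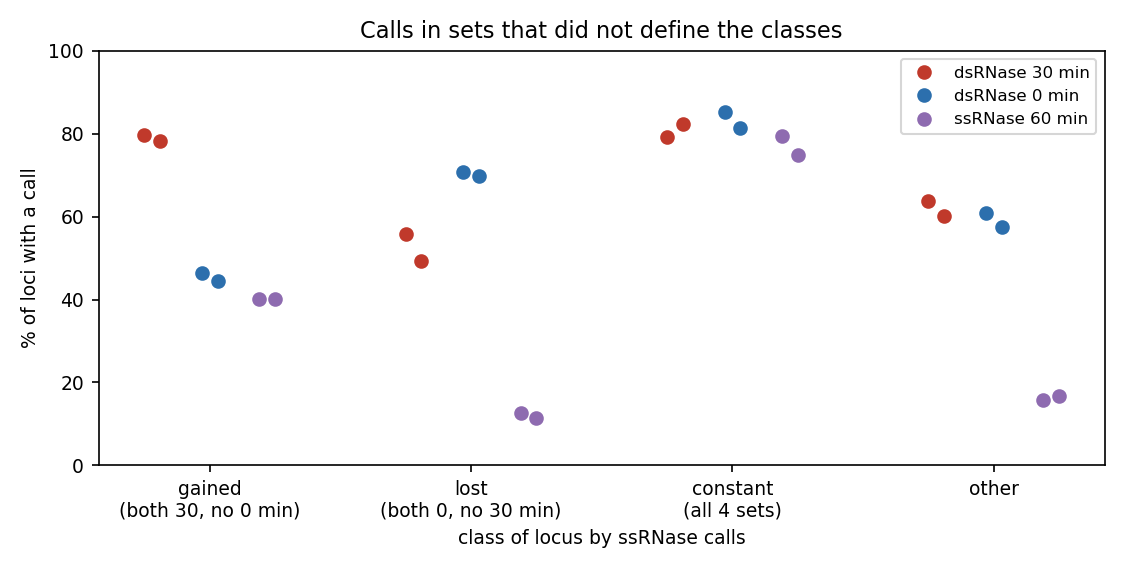
Percent of gained, lost, constant and other ssRNase loci with a call in sets other than the 4 that define these classes, 1 point per set (2 dsRNase sets of 30 min, 2 of 0 min, 2 ssRNase sets of 60 min). DsRNase calls are more frequent at 30 than at 0 min in gained loci (79.8% and 78.2% against 46.4% and 44.5%) and less frequent in lost loci.

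For single regions, the called loci per set were compared by limma on log2 values, with 0.5 calls added and each set scaled to its calls on the strand. Where the calls of a region are counted, they are its called loci. Of the 9106 regions, 60.7% held 1 locus, and 3117 (34.2%) had the mean of at least 1 call over the 4 sets that was required for the test. A region with no call at one time could pass this minimum only through the other time. The minimum was set on unscaled values, and 372 tested regions had no 0-min call, whereas 16 had no 30-min call. After Benjamini-Hochberg adjustment over all 3117, 181 regions had more calls at 30 min (5.81%) and 13 had fewer (0.417%). Of the 181, 179 were among the 372 without a 0-min call, and of the 13, 11 were among the 16 without a 30-min call. These counts are therefore not like-chosen, and the part of the minimum in their difference was not tested. The scaling put the median of all tested regions at -0.33 on the log2 scale, against 0.19 without scaling. It used all calls of a set, several of which can lie in 1 locus, whereas the values scaled are called loci. The ratio of 30 to 0 min was 1.58 for calls and 1.46 for sites, and the part of this choice was not tested. Scaled values lay wholly above those of 0 min in 17.6% of the regions and wholly below in 44.0%. Unscaled calls did so in 23.3% and 2.28%.

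Nearly all regions past the test with more calls had none at 0 min. Of the 181, 179 had no ssRNase call in either 0-min set, and their 2 values of 0 min are then equal by construction, so the spread within that time is 0. The 181 regions summed to 637 and 1043 called loci in the 30-min sets, against 2 and 2 in the 0-min sets, and the median of their 30-min means was 4 called loci. Among the 2729 tested regions with a call at both times, which were set apart after the values had been seen, limma called none in either direction (82 higher and 109 lower at an unadjusted p under 0.05, smallest adjusted p = 0.457). With the minimum lowered to a mean of 0.5 calls, or dropped, no region passed either (smallest adjusted p = 0.0599 and 0.0562), with 940 and 778 higher and 345 and 358 lower at an unadjusted p under 0.05.

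**Figure D4:**
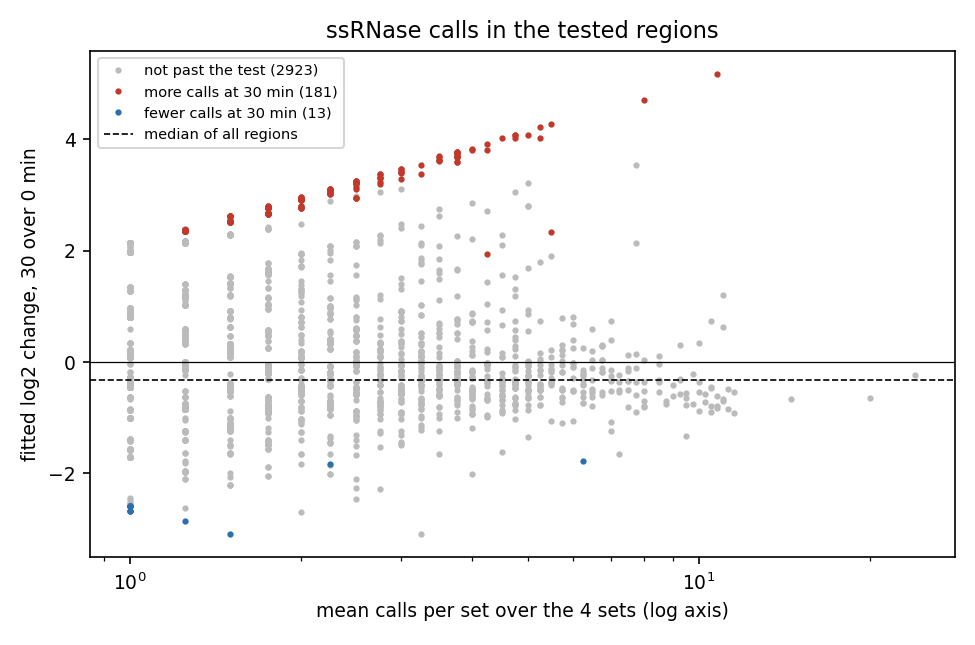
Fitted log2 change of called ssRNase loci, 30 over 0 min, against the mean number of called loci per set (log axis) for the 3117 tested regions, 1 point per region. The 181 regions with more calls lie along the upper edge, where 0-min sets have no call, apart from 2 lower ones, and the dashed line marks the median of -0.33.

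The region with the largest fitted rise lay at chr22:14164786-14170064 on the minus strand and spans 5279 nt with 27 loci. It had 17 and 26 called loci at 30 min, against 0 and 0 at 0 min. Set against a floor of 3 calls per set, this is at least 4.39-fold more after scaling. DsRNase sites numbered 19 and 25 at 30 min and 0 and 1 at 0 min, and ssRNase sites 12 and 13 at 60 min. A neighbour on the same strand, chr22:14161990-14164136, had 9 and 10 called loci at 30 min, against 0 and 0 at 0 min. Its dsRNase sites numbered 8 and 12 at 30 min, with none at 0 min. Whether these neighbours belong to 1 transcript was not tested.

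On chromosome 5 (chr5:13946117-13950979, plus strand) 10 and 22 loci were called at 30 min, against 0 and 0 at 0 min, at least 3.39-fold more. The dsRNase sites there were 31 and 31 at 30 min and 3 and 2 at 0 min, and the ssRNase sites of 60 min numbered 3 and 7. At chr17:9737683-9740940 (plus strand), which begins with the 1003-nt locus named above, 9 and 12 loci were called at 30 min and 0 and 0 at 0 min. Sites with an ssRNase call covered 2436 of its 3258 nt at 30 min. The dsRNase sites were 11 and 12 at 30 min with none at 0 min, and ssRNase kept 9 and 9 sites at 60 min.

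Chromosome 10 held 3 of the 12 largest rises, all on the plus strand. At chr10:5028443-5031133 there were 8 and 11 called loci at 30 min, against 0 and 0 at 0 min, with 7 and 7 ssRNase sites at 60 min. At chr10:4555970-4559890 the replicates were uneven, with 5 and 16 called loci at 30 min and 0 and 0 at 0 min, and again uneven at 60 min with 4 and 14 sites. At chr10:4774867-4777915 there were 6 and 10 called loci at 30 min, against 0 and 0 at 0 min. This region had 17 and 14 dsRNase sites at 30 min, and already 4 and 6 at 0 min.

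The other 5 were chr8:11304605-11307843, chr16:13094450-13097596, chr16:8851621-8853855 and chr9:12690650-12692514 on the minus strand and chr21:1677148-1679233 on the plus strand. They had 7 to 10 called loci in replicate 1 and 9 to 13 in replicate 2 of 30 min, and none at 0 min. The chromosome 8 region had 18 and 20 dsRNase sites at 30 min and 4 and 5 at 0 min, and chr16:8851621 had 14 and 16 at 30 min and 2 and 2 at 0 min. The chromosome 21 region was the one among the 12 with an empty ssRNase set at 60 min (3 and 0 sites). The bound on the rise lay between 1.74-fold and 4.39-fold over the 12 regions. They passed the minimum through the 30-min sets alone, and their calls are given as a description. Limma's adjusted p, at 0.0241 to 0.0284 with the minimum of 1 call, was 0.0599 to 0.0610 with a minimum of 0.5 and 0.0562 to 0.0680 with none, so none of the 12 passed there. With equal set sizes 4 of them did not pass, chr22:14164786, chr22:14161990, chr10:4555970 and chr21:1677148, and without scaling chr5:13946117, chr16:13094450 and chr10:4555970 did not.

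**Figure D5:**
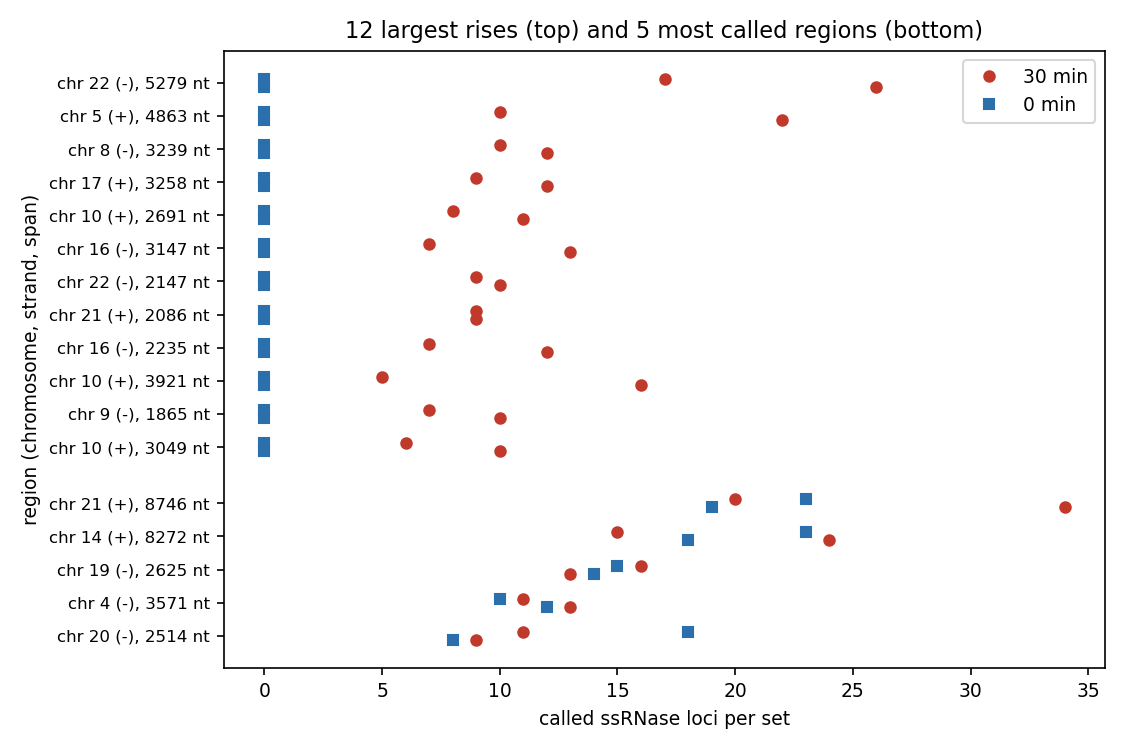
Called ssRNase loci in each 30-min set (circles) and each 0-min set (squares) for the 12 largest rises past the test and, below them, the 5 regions with the most calls over the 4 sets. All 12 are at 0 in both 0-min sets, while in the 5 most called regions the unscaled values of the times overlap.

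Only 2 regions past the test rose from existing calls, and they were singled out after their values were seen. At chr21:3401962-3404788 (plus strand) ssRNase called 8 and 12 loci at 30 min, against 1 and 1 at 0 min (log2 2.33 ± 0.26 standard error, limma adjusted p = 0.0308). DsRNase had 14 and 14 sites there at 30 min and 15 and 11 at 0 min, which overlap. At chr20:6231129-6232737 (plus strand) ssRNase called 6 and 9 loci at 30 min, against 1 and 1 at 0 min (log2 1.94 ± 0.27, adjusted p = 0.0362), while dsRNase had 10 and 13 sites at 30 min and 10 and 10 at 0 min. The 0-min values of both regions lie under the floor of 3 calls per set and are equal before scaling. The log2 values therefore depend on the prior and are no measure of the fold. Over the priors run they ranged from 2.05 to 2.51 at chr21:3401962 and from 1.68 to 2.11 at chr20:6231129. With the minimum lowered as above, or dropped, neither passed (limma adjusted p = 0.0610 and 0.0736 in the first, 0.0662 and 0.105 in the second). Covered length was 1290 nt at 30 min against 83 nt at 0 min in the first, and 963 nt against 75 nt in the second. It sums the width of merged sites with an ssRNase call. It thus includes the extent of dsRNase calls merged into them, leaves out sites of dsRNase alone and follows the ssRNase calls that chose the regions. Neither call held without either 30-min set, without scaling or with the replicate number as a block, and the difference between the enzymes was not tested.

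Across the 181 regions dsRNase sites were also more numerous at 30 than at 0 min. DsRNase sites summed over these regions were 1419 and 1402 in the 30-min sets, against 281 and 295 in the 0-min sets, and in 154 regions both 30-min dsRNase sets lay above both 0-min sets (2 regions had the opposite order). That is 85.1% and 1.10%, against 14.6% and 22.1% of all 3117 tested regions. In 81 of the 181 (44.8%) neither dsRNase set had a site at 0 min, against 11.6% of all tested regions. At 60 min, 151 of the 181 regions (83.4%) had ssRNase sites in both sets and 11 (6.08%) in neither, against 59.8% and 18.8% of all tested regions. In the 2923 regions that did not pass, the dsRNase sums were 10703 and 10507 in the 30-min sets, against 11969 and 11439 in the 0-min sets. These readouts are not independent of the choice of regions, whose extents come from ssRNase sites merged with dsRNase calls. Of the 181, 179 had no ssRNase call at 0 min, against 372 of the 3117 tested regions. The shares of all tested regions are therefore no like-chosen reference.

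The 13 regions with fewer calls were mostly small. Of these, 11 had at most 3 calls in each 0-min set and none at 30 min. The largest fitted fall, at chr11:5730211-5730422 (plus strand), was 0 and 0 called loci at 30 min, against 3 and 3 at 0 min, with no dsRNase site in either time. At chr3:16144276-16144551 (plus strand) there were 0 and 0 at 30 min, against 2 and 3 at 0 min. The other 9 had 0 and 0 at 30 min and 2 and 2 at 0 min. All 11 lie at or under the floor of 3 calls per set, so no fold is given. Values equal within each time have no spread, and limma's adjusted p of these 9, between 0.0308 and 0.0341, rests on the spread fitted over all regions. None of the 11 passed with a minimum of 0.5 calls or none, with either 30-min set left out or with the replicate block.

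The 9 fell into places with and without dsRNase sites. There was no dsRNase site at either time at chr3:16070845-16071345 and chr21:10097492-10097933 (minus strand) or at chr8:1125309-1125592 (plus strand). DsRNase stayed at chr2:7083818-7084554, chr7:17711142-17711467, chr12:3265654-3266173 and chr12:11962076-11962871 (all plus strand), with 1 to 4 sites in each 30-min set and 2 to 4 in each 0-min set. At chr23:10197346-10197499 (plus strand) dsRNase had 0 and 0 sites at 30 min and 2 and 2 at 0 min. At chr18:7701574-7701695 (minus strand) it had 2 and 1 sites at 30 min and none at 0 min.

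A fall from many calls was seen at chr13:15102453-15104656 (plus strand), singled out after its values were seen. It had 3 and 4 called loci at 30 min, against 9 and 9 at 0 min (limma log2 -1.77 ± 0.26, adjusted p = 0.0398). Covered length was 260 nt at 30 min and 850 nt at 0 min. DsRNase sites numbered 9 and 6 at 30 min and 12 and 13 at 0 min, and ssRNase sites 2 and 2 at 60 min. The remaining one, chr26:1954333-1955363 (plus strand), had 1 and 1 called loci at 30 min, against 4 and 3 at 0 min (log2 -1.84 ± 0.29, adjusted p = 0.0498). Its 30-min values lie under the floor of 3 calls per set. Neither chr26:1954333 nor chr13:15102453 passed without scaling, with equal set sizes, with the replicate block or with a minimum of 0.5 calls or none. Nor did chr13:15102453 pass with a gap of 1000 nt, or chr26:1954333 with a gap of 200 nt. Without replicate 2 of 30 min the fitted log2 was -1.67 at chr13:15102453 and -1.59 at chr26:1954333.

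The regions with the most called ssRNase loci did not pass the test. The first, 8746 nt at chr21:2831244-2839989 (plus strand), had 20 and 34 called loci at 30 min, against 23 and 19 at 0 min (log2 -0.24 ± 0.16, limma adjusted p = 0.461), and 13 and 9 ssRNase sites at 60 min. At chr14:5634164-5642435 (plus strand) there were 15 and 24 at 30 min and 23 and 18 at 0 min (log2 -0.65 ± 0.16, adjusted p = 0.115). This scaled difference passed when only sites above the median score of their list were used, and without scaling the log2 was -0.10. At chr19:5680701-5683325 (minus strand) there were 16 and 13 at 30 min, 15 and 14 at 0 min and 16 and 16 sites at 60 min. At chr4:19983357-19986927 (minus strand) there were 11 and 13 at 30 min, against 10 and 12 at 0 min. At chr20:89935-92448 (minus strand) the 0-min replicates themselves differed, with 11 and 9 at 30 min against 18 and 8 at 0 min. Scaled to set size, the values of 30 min overlapped those of 0 min there and lay wholly below them in the other regions of this paragraph.

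Of the 5 regions with at least 10 called loci in every set, the smallest fitted changes were at chr21:2831244, at chr15:2690376-2694064 (plus strand, 10 and 13 at 30 min against 10 and 12 at 0 min, log2 -0.48 ± 0.29) and at chr4:19983357 (log2 -0.53 ± 0.31). The unscaled calls of these regions overlap between the times. The log2 values are scaled to the size of each set, and the scaled values of 30 min lay wholly below those of 0 min in all 3 regions. That was so in 44.0% of all tested regions. By the pattern of site widths and gaps, no named region with at least 3 pairs of neighbouring sites matched another region. Such a match would have marked a possible copy. Named regions with fewer pairs could not be marked, and the 1 pair at chr23:10197346 was also seen elsewhere.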

How the data were processed

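The 3 lists, 1 per time, were deposited by the authors as merged sites giving position, strand, score and, in 1 column, every call merged. The authors deposited the score without naming its unit, and it was used here to rank sites within a list. Per the submitters' processing notes, cutadapt 1.2.1 and TopHat2 2.0.10 were used, and the build named, mm10, is that of the mouse and cannot be that of these coordinates. The list names hold CSAR and a false discovery rate of 5%. The caller's settings are not given in the sources used here. Call names give time, RNase and replicate, and each kind of name defines 1 call set, which rests on 1 plusP and 1 minusP library. Descriptions of the plusP ssRNase libraries name a protein kinase, those of the dsRNase ones proteinase K, and no result depends on it.

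From the lists, calls, widths, loci (overlap of at least 1 nt on a strand) and regions (gaps under 500 nt) were computed in Python 3.11.15 with pandas 2.3.3. Numbers, widths and agreement were compared by exact permutation over the 4 sets. Called loci per region were tested in R 4.3.3 by limma 3.58.1 with the variance trend, a prior of 0.5 calls in proportion to set size, and Benjamini-Hochberg adjustment at 0.05. The fit was tested on simulated data. With calls as few as these and binomial noise it called no region, changed or not, and it recovered most changes only with many more calls. A region that missed the threshold is not shown to be constant. In the data the same fit called 181 regions with more and 13 with fewer calls, nearly all with 0-min values equal at no call. Why regions were called in the data and none in simulated data with as few calls was not tested. The simulation therefore gives no error rate for the regions called here. Where 1 time had no call, the fold is a bound computed from 3 calls in each empty set. Wilson intervals are at 95%. The value after ± is limma's standard error for a log2 change and the SD of the sets of a time for a width.

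Named are the 12 regions past the test with the largest rise, the 12 with the largest fall and the 5 with most calls. Others are the 3 regions of smallest fitted change with at least 10 calls in every set, and the 3 widest gained and lost loci. The members and the lists of what to test were chosen with earlier results of these data known. The 60-min and dsRNase calls were read as side information and not tested. Alternatives changed the score limit, overlap, gap, prior, minimum, scaling, set sizes, sets in the fit and the replicate block.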

Additional observations from a re-analysis of the deposited data

Results flagged for a closer look

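In 1 of the regions named above, the 2 enzymes moved in opposite directions between 30 and 0 min. At chr18:7701574-7701695 (minus strand) ssRNase had 0 and 0 called loci at 30 min, against 2 and 2 at 0 min. Both times lie under the floor of 3 calls per set, so the fitted log2 change of -2.67 depends on the prior of 0.5 calls and is no measure of the fold. DsRNase had 2 and 1 sites there at 30 min and 0 and 0 at 0 min. The difference between the enzymes was not tested.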

How the results depend on the processing

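The difference in calls kept its direction in all alternatives, from 1580.5 to 8789.5 with a set left out. The width difference ran from -2 to 7 nt with a set left out. Gained loci numbered 2582 to 7171 and lost loci 564 to 2394 with a set left out, 859 and 1037 with equal set sizes, and 515 and 232 at sites without a dsRNase name. Regions with more calls numbered 108 to 355 and those with fewer 0 to 54 with a set left out. Sites above the median score gave 272 more and 25 fewer of 2832 regions tested, and a prior of 0.25 calls 286 and 15 of 3117. A minimum mean of 2 calls gave 103 more and 2 fewer of 1254, and a minimum of 0.5 calls or none 0 and 0. A gap of 200 nt gave 133 more and 6 fewer of 3265, and no scaling 223 and 28 of 3117. Equal set sizes gave 128 more and 62 fewer of 2118. Chosen after the data were seen, a prior not scaled to the set gave 161 more and 46 fewer, and regions with calls at both times 0 and 0. The replicate number as a block gave 35 more, 34 of them among the 181, and 0 fewer. Same-numbered sets of the 2 times did not deviate together (correlation -0.06 over 3117 regions), and the labels pair nothing. With a lower minimum or none, more regions are tested (5597 and 9106), and the cause of the other shifts was not tested. The 12 named rises kept their direction in the alternatives run, but 34 of their 228 values no longer passed, all 12 with a minimum of 0.5 calls or none, and the others with equal set sizes, no scaling, a gap of 200 nt or the 6 sets of all 3 times. At chr21:1677148 equal set sizes gave a fitted log2 of 1.83 (limma adjusted p = 0.618) against 4.03. Depth is unknown, and its part in the number of calls was not tested.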
